A study of Mus musculus with 6 samples.

Results

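Laminins and integrins were measured in mouse pancreatic buds that had been taken at E12.5 and kept in explant culture for 2 days with or without tetrabenazine (TBZ), a blocker of VMAT2, the transporter that loads monoamines into vesicles. Both groups were cultured in M199 medium with 10% fetal bovine serum and 0.1% DMSO, and the TBZ group also received 0.1 µM TBZ throughout. There were 3 control and 3 TBZ libraries of poly-A RNA, and the series was made to learn what VMAT2 and monoamines do in the forming pancreas. The mouse strain, the embryos' sex and whether buds were pooled are not given in the sources used here. Genes were taken by name: protein-coding genes whose symbol starts with Lama, Lamb or Lamc and a digit, or with Itga or Itgb and a digit or letter. That gave 42 of the 54532 genes in the table, namely 11 laminin chains (5 alpha, 3 beta and 3 gamma), 27 integrin subunits (18 alpha and 9 beta) and 4 genes that share only the start of the name. These 4 are Itgb1bp1 and Itgb1bp2, which encode proteins that bind the tail of integrin beta 1, Itgb3bp, which encodes a nuclear protein of the centromere, and Itgbl1, which encodes a secreted protein with integrin-like repeats.

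Laminins are cross-shaped proteins of the basement membrane, the sheet of matrix under every epithelium and around vessels and muscle, and each is built from 1 alpha, 1 beta and 1 gamma chain. Integrins are receptors of 1 alpha and 1 beta subunit that bind laminins, collagens, fibronectin or cell surface proteins outside the cell and link them to the actin or keratin skeleton inside. In the developing pancreas a laminin-rich basement membrane lies between the branching epithelium and its mesenchyme, and epithelial growth, polarity and differentiation are known to depend on it. The buds are mixed tissue, so a lower level of a gene in a library can mean fewer cells of a type or less RNA per cell, and the difference cannot be told apart in bulk RNA.

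The libraries held 35825033 to 50620936 counted reads. The bud's defining genes were present, with mean FPKM (reads scaled by gene length and library size, so that genes can be compared) of 25.6 for Pdx1 and 6.95 for Ptf1a, the pancreatic transcription factors, and of 167 for the epithelial adhesion gene Epcam and 322 for the mesenchymal collagen gene Col1a1. Control replicate 3 stood apart in some genes of the neighbouring stomach and oesophagus. Sox2 was at 6.17 FPKM there and at 0.203 to 1.14 FPKM in the other libraries, and in all 5 of the 11 markers in that list were highest in this library. Tff2 of the same list was lowest there. Markers of some other tissues, given below, were also highest in this library. For the genes and sums that this library moves most, values without it are given beside the others. The test over all genes was the edgeR quasi-likelihood test, in which an adjusted p under 0.05 counted as a change.

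Promoter sequence is shown for 3 of the most abundant genes, Itgb1, Itgb5 and Lama5, beside Lamb3, the scarce chain whose level varied most between libraries among those tested. Each run is the 250 bases before the RefSeq start (GRCm38.p6), 5′ to 3′ on the gene's strand, and capitals mark the GC box, GGGCGG on either strand, which the factor Sp1 binds. The windows are chr8:128685404-128685653 (plus strand) for Itgb1, chr16:33829415-33829664 (plus) for Itgb5, chr2:180225860-180226109 (minus) for Lama5 and chr1:193301744-193301993 (plus) for Lamb3.
Itgb1: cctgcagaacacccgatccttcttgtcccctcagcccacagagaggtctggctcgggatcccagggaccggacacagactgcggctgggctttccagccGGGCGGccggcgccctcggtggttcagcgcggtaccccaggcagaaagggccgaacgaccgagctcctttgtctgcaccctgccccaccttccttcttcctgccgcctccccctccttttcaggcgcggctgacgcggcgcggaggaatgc
Itgb5: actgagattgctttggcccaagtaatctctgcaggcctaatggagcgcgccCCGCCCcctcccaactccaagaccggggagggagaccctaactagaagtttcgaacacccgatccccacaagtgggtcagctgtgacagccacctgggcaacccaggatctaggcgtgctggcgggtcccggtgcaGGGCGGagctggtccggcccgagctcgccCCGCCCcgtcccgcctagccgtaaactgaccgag
Lama5: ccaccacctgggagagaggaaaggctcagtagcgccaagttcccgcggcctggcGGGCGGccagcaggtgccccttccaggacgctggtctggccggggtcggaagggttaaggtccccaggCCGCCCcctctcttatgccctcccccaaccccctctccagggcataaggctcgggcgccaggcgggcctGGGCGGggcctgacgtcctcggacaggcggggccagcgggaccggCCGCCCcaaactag
Lamb3: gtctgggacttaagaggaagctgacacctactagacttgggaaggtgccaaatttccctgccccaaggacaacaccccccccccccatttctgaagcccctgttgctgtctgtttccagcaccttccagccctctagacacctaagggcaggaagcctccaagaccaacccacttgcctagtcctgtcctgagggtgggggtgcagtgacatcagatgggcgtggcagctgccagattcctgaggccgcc
The windows of Itgb1, Itgb5 and Lama5 held 1, 3 and 4 GC boxes, and the Lamb3 window held none. Another Lamb3 window, not shown, also held none, as did those of the abundant genes Itga8, Itgav and Lamb2. RefSeq windows were found for 27 of the 42 genes. Of the 9 with a mean of at least 10 FPKM, 6 had a GC box, against 1 of the 9 with a mean from 1 to 10 FPKM and 2 of the 9 with a mean under 1 FPKM. Over these genes together the count was 9 of 27 (33.3%), and of all 32851 windows of the same length 32.7% had one. Here a gene with more than 1 window counts once, while the share of all windows counts each window. An AP-1 site (TGANTCA on either strand) was found in 1 of the 27 genes, Itgax, against 6.75% of all windows, and a TATAAA on either strand in 0 of 27, against 12.4%. The motifs did not overlap in the windows shown.

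The 42 genes spanned a wide range of levels. Integrin beta 1 led with a mean of 230.2 FPKM, followed by laminin gamma 1 (Lamc1, 72.2 FPKM), integrin alpha 5 (Itga5, 43.4), integrin beta 5 (Itgb5, 41.9), laminin beta 1 (Lamb1, 38.9) and integrin alpha 6 (Itga6, 31.6). In all, 11 genes had a mean of at least 10 FPKM, 18 lay from 1 to 10 and 13 lay under 1. Itgad, an alpha subunit of leukocytes, had 1 read in all 6 libraries together and Itgbl1 had 39, and these 2 did not pass the filter on low counts. The other 40 were tested. The standard deviation over the 6 libraries was under 10% of the mean in 14 of the 42 genes and was largest, among the tested ones, for Lamb3 at 60.5%.

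**Figure D1:**
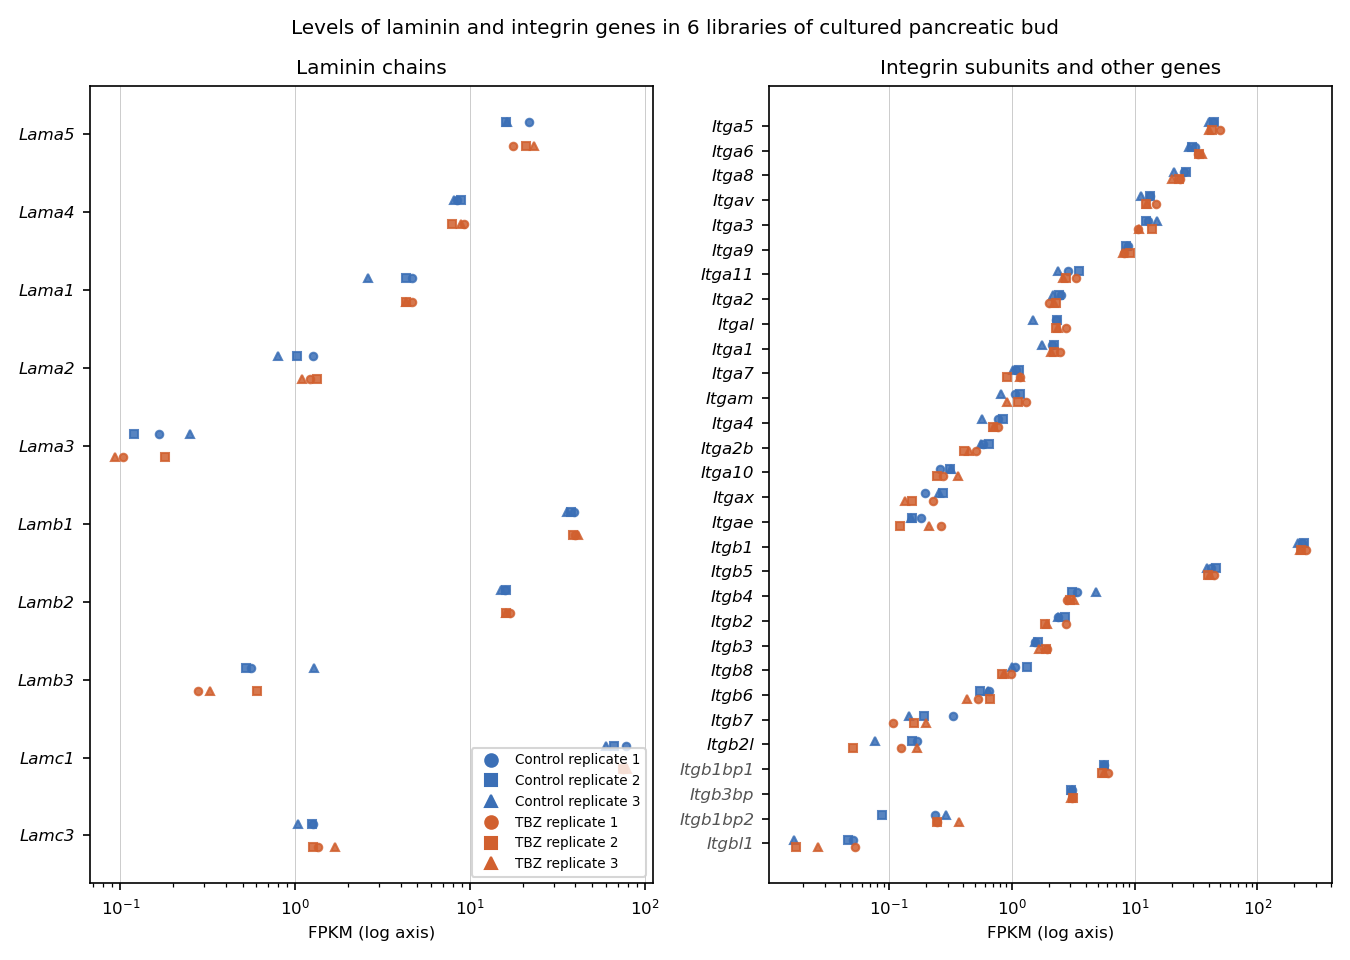
FPKM (log axis) of laminin chains (left) and of integrin subunits and other genes that meet the naming rule (right, grey names) in 3 control libraries (blue) and 3 TBZ libraries (orange), with marker shape for replicate number. Itgad, with 1 read in all, and 1 gene that is not reported are left out. The blue and orange points of most genes lie on top of each other, while Lamb3 spreads from 0.277 to 1.28 FPKM and Lama1 has a single low point, control replicate 3.

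No laminin or integrin gene changed in TBZ buds in the edgeR test over all genes. The count was 0 of 40 in either direction, against 34 of 18226 genes (0.187%, of which 0.154% higher and 0.0329% lower) among all genes tested. DESeq2 called 1 of the 42 genes, Itga6, as higher (background 1.1% called higher and 1.43% in either direction), as did the authors' deposited table (background 0.588% higher and 0.767% in either direction). The deposited values nearly equal those of DESeq2, and both called 222 genes, so these calls are not independent of each other. Itgb1bp2, Itgb7, Itgb2l, Itgbl1 and Itgad had no DESeq2 adjusted p. At an unadjusted edgeR p under 0.05 there were 2 higher genes, Itga6 and Itgb3, and 3 lower ones, Itgb8, Itga2b and Lamb3, where 9.61% of all tested genes had such a p (5.08% higher and 4.54% lower). TBZ and control values did not overlap for 3 genes with higher (Itga6, Itgb3 and Lamc3) and 3 with lower values (Itgb8 and Itga2b among them) in TBZ, while 15.5% of all tested genes had groups that did not overlap (8.47% higher and 7.03% lower). Of the 40 genes 20 were above and 20 below 0, with a median log2 fold change of 0.0038, and over all tested genes 50.1% were above 0 with a median of 0.00031. The 95% interval of the log2 fold change lay within -0.5 to 0.5 for 23 genes and within -0.3 to 0.3 for 12, and for the remaining genes larger differences lie within the interval.

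**Figure D2:**
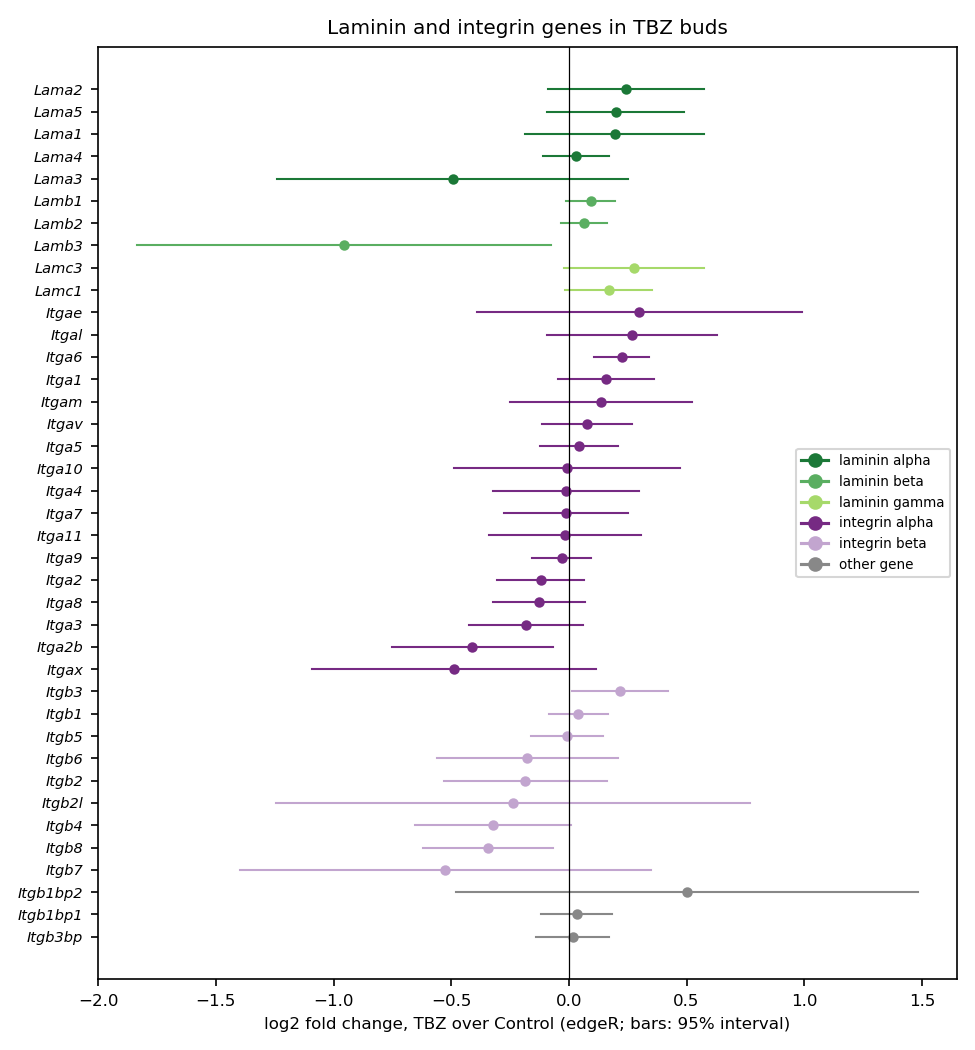
log2 fold change of TBZ over control for the tested genes, 1 of which is not shown (points) with the 95% interval from the edgeR fit (bars), coloured by class. Most intervals cross 0; those of Itga6 (0.11 to 0.34) and Itgb3 (0.01 to 0.42) lie above it, and those of Itgb8, Itga2b and Lamb3 lie below it before any adjustment for the number of genes.

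Laminin alpha chains carry the domains that cells bind. Lama5, the chain of laminin-511 in most mature epithelial basement membranes, was the most abundant, at 21.8, 16.0 and 16.2 FPKM in control replicates 1 to 3 and 17.7, 20.9 and 23.3 FPKM in TBZ replicates 1 to 3. Its groups overlapped, because control replicate 1 was as high as the TBZ libraries (log2 fold change 0.20 ± 0.13 SE, edgeR adjusted p = 0.662; 0.13 without control replicate 3). Lama4, a chain of vessels and mesenchyme, stood at 8.44, 8.92 and 8.13 FPKM in control and 9.24, 7.92 and 8.84 FPKM in TBZ, and the log2 fold change was 0.03 ± 0.06 (SE). Both TBZ extremes lay outside the control range, 1 on each side.

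Lama1, the chain of laminin-111 in early embryonic basement membranes, was at 4.63, 4.29 and 2.62 FPKM in control and 4.64, 4.29 and 4.29 FPKM in TBZ. Control replicate 3 was the single low library. The log2 fold change of 0.19 ± 0.17 (SE) became -0.01 ± 0.06 without it. Lama2, the chain of muscle and peripheral nerve, ranged from 0.797 to 1.33 FPKM, and its lowest value was again in control replicate 3 (log2 fold change 0.24 ± 0.15 SE, and 0.09 ± 0.11 SE without that library). Lama3, the alpha chain of laminin-332 in stratified and glandular epithelium, was scarce, with 0.0934 to 0.251 FPKM. The 3 alpha chains with log2 fold changes from 0.19 to 0.24 were Lama1, Lama5 and Lama2, and none of the 5 passed.

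Beta and gamma chains hold the trimer together. Lamb1, the beta chain of most embryonic laminins, was at 39.4, 37.8 and 35.9 FPKM in control and 40.0, 39.0 and 41.4 FPKM in TBZ. The lowest TBZ library lay just under the highest control (log2 fold change 0.09 ± 0.05 SE, edgeR adjusted p = 0.575). Lamb2, which replaces beta 1 at the synapse, in the glomerulus and in vessels, was the steadiest laminin chain, at 15.8, 16.0 and 15.1 FPKM in control and 16.8, 16.1 and 16.0 FPKM in TBZ. Lamc1, the gamma chain of nearly all non-epidermal laminins, was at 77.7, 66.6 and 59.8 FPKM in control and 75.1, 75.2 and 79.1 FPKM in TBZ. The TBZ libraries were close together and control replicate 1 lay among them, while control replicate 3 was lowest (log2 fold change 0.17 ± 0.08 SE, edgeR adjusted p = 0.554; 0.09 without control replicate 3).

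Lamc3, a rarer gamma chain, was at 1.26, 1.24 and 1.04 FPKM in control and 1.34, 1.27 and 1.68 FPKM in TBZ. The groups did not overlap, by a narrow gap, and the gene did not pass (log2 fold change 0.28 ± 0.13 SE, edgeR adjusted p = 0.550). Of its exonic length 6.27% is shared with a gene on the opposite strand, whose reads cannot be told apart in a library that keeps no strand.

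Per length, the chain classes were present in unequal amounts. Summed gamma chains came to 73.8 ± 8.83 FPKM in control and 82.1 ± 2.46 FPKM in TBZ, beta chains to 54.1 ± 1.76 and 56.9 ± 1.03 FPKM, and alpha chains to 31.5 ± 4.28 and 35.0 ± 2.38 FPKM (SD, n = 3 each). Gamma RNA thus exceeded alpha RNA by 2.26 to 2.45 times in every library, and the ratio was 2.34 ± 0.0411 in control and 2.35 ± 0.0987 in TBZ. The beta sum was the only one of these sums whose groups did not overlap, with TBZ values from 55.72 to 57.7 FPKM and control values from 52.2 to 55.69 FPKM (two-sided exact permutation p = 0.1, the smallest that 3 against 3 libraries can give, and 0.775 after Benjamini-Hochberg adjustment over the 31 sums, shares and ratios compared). That gap was very narrow, and with reads not divided by gene length the exact permutation p of the beta sum was 0.2. For alpha and gamma sums the exact permutation p was 0.3 in each case. The log2 difference of the alpha sum was 0.15, and leaving out control replicate 3 gave 0.07, leaving out TBZ replicate 3 gave 0.10 and leaving out control replicate 1 gave 0.27. For the gamma sum it was 0.15, and 0.08 and 0.25 without control replicates 3 and 1. For the beta sum it was 0.07, and 0.05 without control replicate 3. Lama5 made up 56.8 ± 3.80% of alpha RNA in control and 58.7 ± 4.31% in TBZ and Lamb1 69.7 ± 1.00% and 70.6 ± 0.992% of beta RNA (SD, n = 3 each). The exact permutation p-values of these shares were 0.5 and 0.4. The difference in the Lamb1 share was 0.959 percentage points, and 0.481 without control replicate 3 and 0.387 without TBZ replicate 3. Lama4 followed at 22.9 to 29.4% and Lama1 at 9.37 to 14.1% of alpha RNA.

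**Figure D3:**
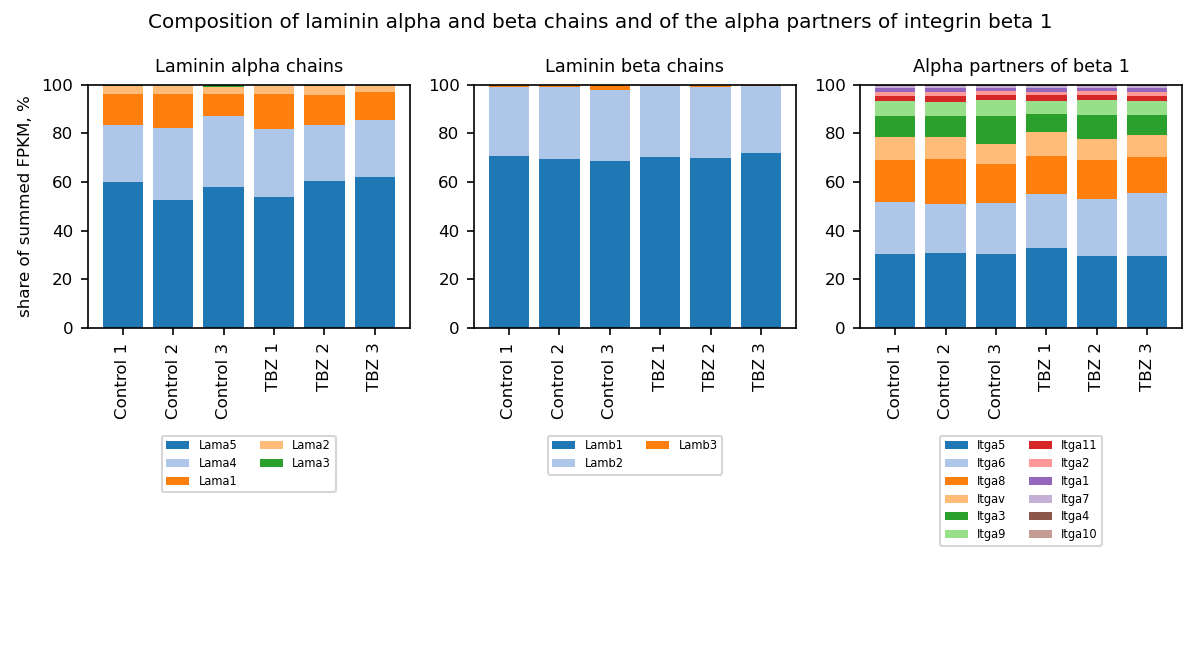
Share of summed FPKM (percent, bars add to 100) of each laminin alpha and beta chain and of each alpha subunit that can pair with integrin beta 1, in the 6 libraries. Lama5 and Lamb1 are the largest share of their class in every library, and the share of Itga6 is larger in the 3 TBZ libraries (22.1 to 26.0%) than in the controls (20.1 to 21.4%).

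Itga6, with Itga3 and Itga7 a laminin-binding alpha subunit, was the member with the smallest p-value. It lies on chromosome 2 from position 71745616 to 71858416 (mm10, plus strand). It was at 30.9, 29.1 and 27.6 FPKM in control replicates 1 to 3 and at 33.0, 33.7 and 35.5 FPKM in TBZ replicates 1 to 3. Each TBZ library was above each control. The means were 29.2 ± 1.65 and 34.1 ± 1.28 FPKM (SD, n = 3 each), a 1.17-fold difference. On the log2 scale it was 0.22 ± 0.05 (SE), with an interval from 0.11 to 0.34. The edgeR adjusted p was 0.176. With DESeq2 it was 0.0165 and with edgeR and no filter on low counts 0.0102. The value in the authors' deposited table, 0.0164, nearly equals that of DESeq2 and is not independent of it. Over all alternatives it ran from 0.0102 to 0.559. The log2 fold change stayed between 0.19 and 0.26 whichever library was left out, and was 0.19 without control replicate 3.

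Pancreatic progenitor markers moved with it. All 8 were above 0 (median 0.24), none passed with edgeR and 3 passed with DESeq2 as higher, against 1.1% of all genes. Their summed level was 132 to 151 FPKM in control and 167 to 183 FPKM in TBZ. General epithelial markers summed to 937 to 1070 FPKM in control and 985 to 1086 FPKM in TBZ, with 8 of 12 above 0. Endothelial markers summed to 105.0 to 106.4 FPKM in control and 106.7 to 114.5 FPKM in TBZ, with 8 of 10 above 0. Their groups also did not overlap, by a narrow gap, and 0 of them passed with edgeR or DESeq2. Sums of mesenchymal and of smooth muscle markers overlapped between the groups. The part of these markers in the Itga6 difference was not tested.

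Itga3, the other main epithelial laminin receptor subunit, had 2 TBZ libraries below every control and 1 among them. It was at 12.7, 12.3 and 15.2 FPKM in control and 10.7, 13.7 and 10.9 FPKM in TBZ, so that the groups overlapped (log2 fold change -0.18 ± 0.11 SE, edgeR adjusted p = 0.631; -0.08 without control replicate 3). The ratio of Itga6 to Itga3, which was chosen after the values were seen, was 2.43, 2.37 and 1.81 in control and 3.08, 2.45 and 3.25 in TBZ. Itga7, the laminin receptor subunit of muscle, was low at 0.904 to 1.17 FPKM (log2 fold change -0.01 ± 0.12 SE).

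Fibronectin and other RGD receptors were led by Itga5, the fibronectin receptor subunit. It was at 43.5, 44.7 and 40.2 FPKM in control and 49.4, 42.6 and 40.3 FPKM in TBZ. Only TBZ replicate 1 lay above the controls (log2 fold change 0.04 ± 0.07 SE). Itga8, which binds nephronectin and marks mesenchyme and smooth muscle, was at 25.2, 26.2 and 20.9 FPKM in control and 23.3, 22.8 and 20.0 FPKM in TBZ, with overlapping groups (log2 fold change -0.13 ± 0.09 SE; -0.22 without control replicate 3). Itgav, the alpha subunit that most RGD-binding beta subunits share, ranged from 11.2 to 14.9 FPKM. Part of the exons of Itga8 (5.05%) and Itgav (5.9%) is shared with a gene on the opposite strand.

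Collagen receptors were scarcer. Itga11, Itga2 and Itga1 had means of 2.91, 2.26 and 2.13 FPKM, and Itga10, of cartilage, had 0.296 FPKM. The level of Itga10 is uncertain because 33.5% of its exonic length is shared with another gene model on the same strand. Itga1 was at 2.10, 2.19 and 1.75 FPKM in control and 2.47, 2.19 and 2.08 FPKM in TBZ, with overlapping groups (log2 fold change 0.16 ± 0.09 SE, edgeR adjusted p = 0.626; 0.07 without control replicate 3). Itga9, which binds tenascin and other ligands, had a mean of 8.56 FPKM (log2 fold change -0.03 ± 0.06 SE).

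As shares of the 12 alpha subunits that can pair with beta 1, Itga5 took 30.5 ± 0.403% in control and 30.7 ± 1.97% in TBZ and Itga6 20.8 ± 0.648% and 23.9 ± 1.99% (SD, n = 3 each). For Itga6 the groups did not overlap and the two-sided exact permutation p was 0.1, the smallest possible, or 0.775 after adjustment over the 31 quantities. The same p was found for Itga1 (1.43 ± 0.0977% and 1.57 ± 0.0732%) and, in the lower direction, for Itga2 (1.68 ± 0.0448% and 1.52 ± 0.148%). Shares of 1 sum are not independent of each other. Itga8 took 17.2 ± 1.20% and 15.4 ± 0.664% (exact permutation p = 0.2). Itgb1 RNA exceeded the sum of its 12 possible partners in every library, by 1.57 to 1.68 times.

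Beta subunits set the ligand class and the link to the skeleton. Itgb1 was at 229, 238 and 215 FPKM in control and 251, 226 and 223 FPKM in TBZ. The groups overlapped, and the interval of its log2 fold change (0.04 ± 0.06 SE) ran from -0.09 to 0.16. Itgb5, a vitronectin receptor subunit with alpha v, was at 41.7, 45.8 and 38.6 FPKM in control and 44.7, 39.7 and 40.9 FPKM in TBZ, all 3 TBZ values within the control range (log2 fold change -0.01 ± 0.07 SE).

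Of the other partners of alpha v, Itgb3 was at 1.55, 1.63 and 1.53 FPKM in control and 1.94, 1.88 and 1.65 FPKM in TBZ. Each TBZ library was above each control, by little in TBZ replicate 3 (log2 fold change 0.22 ± 0.09 SE, unadjusted p = 0.0398, edgeR adjusted p = 0.492). Itgb8, whose receptor activates TGF-beta, was at 1.07, 1.33 and 0.997 FPKM in control and 0.981, 0.832 and 0.867 FPKM in TBZ. Each TBZ library was below each control, and control replicate 2 was the highest (log2 fold change -0.34 ± 0.12 SE, unadjusted p = 0.0203, edgeR adjusted p = 0.408; -0.21 without control replicate 2 and -0.42 without control replicate 3). Itgb6, an epithelial subunit that also activates TGF-beta, ranged from 0.431 to 0.664 FPKM (log2 fold change -0.18 ± 0.17 SE). In order of mean level the partners of alpha v other than beta 1 were thus Itgb5, Itgb3, Itgb8 and Itgb6, and in each of the 6 libraries Itgb5 exceeded Itgb3 by at least 21.1 times.

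**Figure D4:**
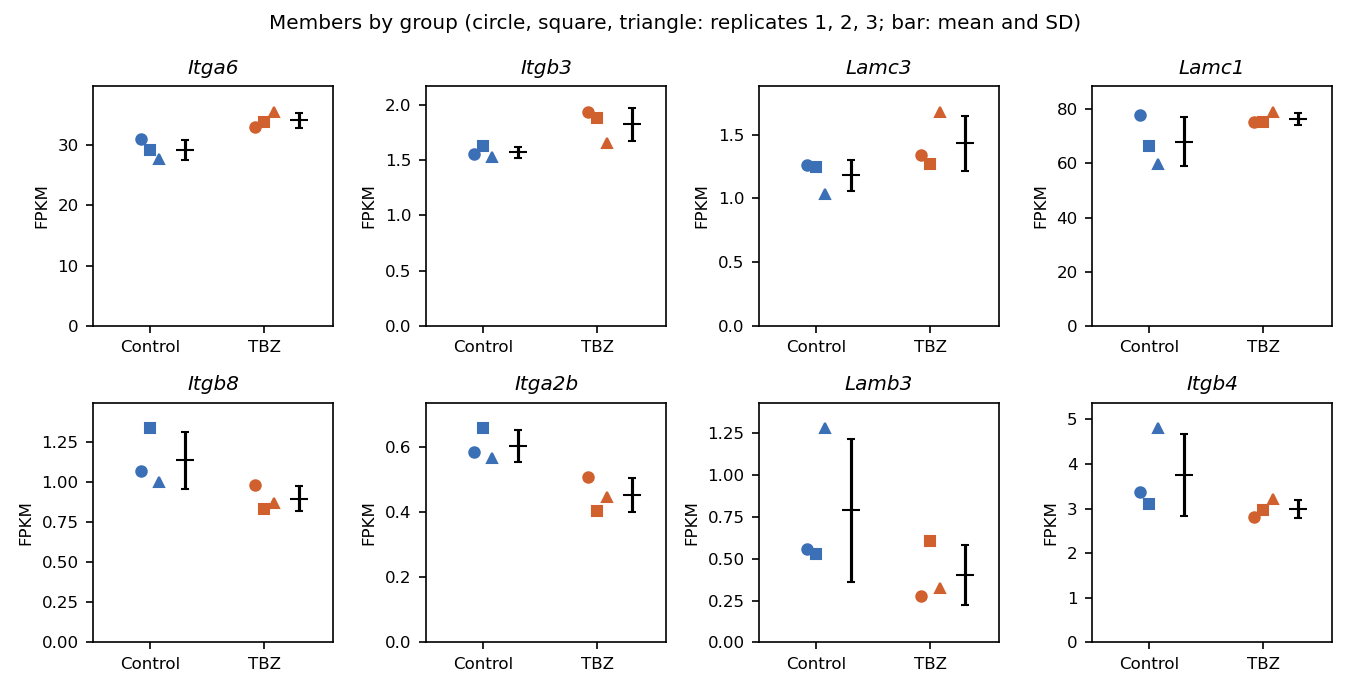
FPKM of 8 members by group, with a marker for each replicate (circle, square and triangle for replicates 1, 2 and 3) and the mean with SD of 3 libraries beside them; each axis starts at 0. Itga6, Itgb3 and Lamc3 do not overlap with TBZ higher, Itgb8 and Itga2b do not overlap with TBZ lower, and the highest Itgb4 and Lamb3 points are control replicate 3.

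Lamb3, Lama3 and Itgb4 were highest in control replicate 3, while Itga6 was lowest there. Laminin-332, to which Lama3 and Lamb3 give chains, anchors epithelia through the alpha 6 beta 4 integrin, and alpha 3 beta 1 also binds it. Lamb3 was at 0.561, 0.526 and 1.28 FPKM in control and 0.277, 0.607 and 0.325 FPKM in TBZ. Control replicate 3 was at 2.36 times the mean of the other controls, and TBZ replicate 2 was above both of those (log2 fold change -0.96 ± 0.39 SE, unadjusted p = 0.0359, edgeR adjusted p = 0.475). Without control replicate 3 it was -0.42 ± 0.29 (SE), with an edgeR adjusted p of 0.698. Over all alternatives the adjusted p ran from 0.013 (no filter on low counts) to 0.804.

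Itgb4, the beta subunit found in hemidesmosomes, was at 3.37, 3.09 and 4.80 FPKM in control and 2.81, 2.96 and 3.22 FPKM in TBZ. On the log2 scale the difference was -0.32 ± 0.15 (SE), with an edgeR adjusted p of 0.537, and -0.11 ± 0.08 (SE) without control replicate 3. Of its exonic length 7.66% is shared with a gene on the opposite strand. Lama3 had 0.167, 0.119 and 0.251 FPKM in control and 0.104, 0.18 and 0.0934 FPKM in TBZ, and its log2 fold change went from -0.49 ± 0.33 to -0.17 ± 0.31 (SE) without that library.

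Control replicate 3 was the highest library for these 3 genes and for Itga3, which were set side by side after their values were seen. Some markers of other tissue moved with them, and the genes named here were chosen after their values were seen. Krt5, a basal cell keratin, was at 2.76 FPKM in control replicate 3 and at 0.0563 to 0.194 FPKM elsewhere, Pitx1, a homeobox gene, at 17.9 FPKM against 0.483 to 2.72 FPKM, and Trp63, the basal cell factor, at 1.02 FPKM against 0.422 to 0.627 FPKM. The 11 stomach and oesophagus markers, of which Barx1 had the highest level, summed to 72.9 to 106 FPKM in control and 53.7 to 84.4 FPKM in TBZ, 1 was at 0 in all libraries, and 7 of the 8 tested were below 0. The other one, the trefoil factor gene Tff2, was called higher by DESeq2 (adjusted p = 0.0316) and not by edgeR (adjusted p = 0.185). Of that list 5 were highest in control replicate 3, while Barx1, Cldn18, Gkn2, Nkx6-3 and Tff2 were not, and Tff2 was lowest there at 0.49 FPKM against 0.985 to 2.75 FPKM elsewhere. The 6 mesothelial markers, of which 5, Krt19 among them, were highest in control replicate 3, summed to 85.4 to 126 FPKM in control and 77.3 to 95.0 FPKM in TBZ. Krt19, which is also on the general epithelial list, weighed heavily in that sum. It was at 51.4 FPKM in control replicate 3 and at 22.4 to 25.7 FPKM elsewhere, so the sum is not specific to mesothelium. The part of such tissue in the levels of Lama3, Lamb3, Itga3 and Itgb4 was not tested.

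**Figure D5:**
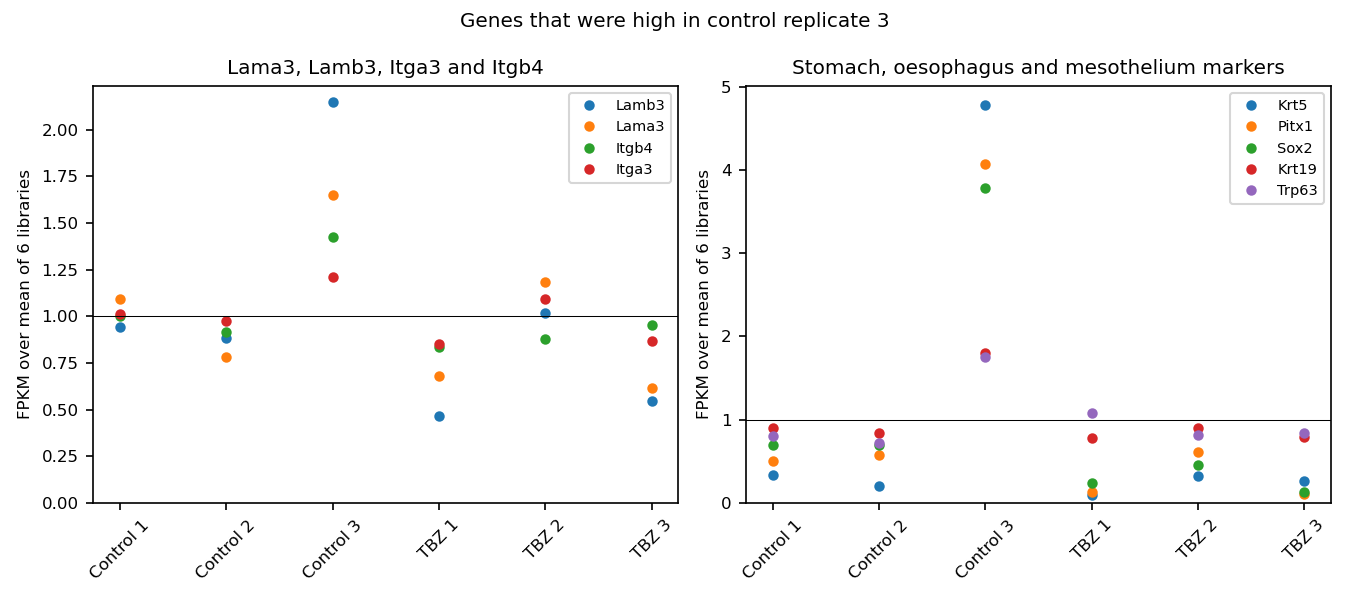
FPKM of each gene divided by its mean over the 6 libraries, for Lama3 and Lamb3 with Itga3 and Itgb4 (left) and for 5 marker genes of stomach, oesophagus and mesothelium (right); the line marks the mean. The genes were chosen, after their values were seen, as ones that are highest in control replicate 3, with Lamb3 at 2.15 and Krt5 at 4.77 times the mean there. Other markers of the same lists are not highest there. Krt19 is on both the mesothelial and the general epithelial list.

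Control replicate 3 was also the lowest library for 17 of the 40 tested genes, more than any other library, and TBZ replicate 1 was the highest for 14. The shares over all tested genes are not given here, so these counts cannot be read as particular to laminins and integrins. Smooth muscle markers were highest in TBZ replicate 1 as well, with a sum of 1220 FPKM against 876 to 986 FPKM in the other 5 libraries. The same held for the mesenchymal sum (1232 FPKM against 1079 to 1211 FPKM) and the endothelial sum (114.5 FPKM against 105.0 to 107.8 FPKM). Sums of the remaining marker lists were highest in other libraries.

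Integrins of blood cells were present at low levels. Itgb2, the beta subunit of leukocytes, was at 1.86 to 2.75 FPKM and its partner Itgal at 2.30, 2.34 and 1.48 FPKM in control and 2.74, 2.28 and 2.37 FPKM in TBZ. Control replicate 3 was the single low library for Itgal (log2 fold change 0.27 ± 0.16 SE, 0.09 without that library). The myeloid subunit Itgam had a mean of 1.06 FPKM, which is uncertain because 68.7% of its exonic length is shared with another gene model on the same strand. Itgax, of dendritic cells and macrophages, had 0.195, 0.274 and 0.253 FPKM in control and 0.226, 0.153 and 0.134 FPKM in TBZ (log2 fold change -0.49 ± 0.27 SE, edgeR adjusted p = 0.605). Itga4, Itgae, Itgb7 and Itgb2l had means of 0.731, 0.181, 0.189 and 0.124 FPKM, and none passed. Exons of Itga4 are shared with a gene on the opposite strand over 8.04% of their length.

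Itga2b, the platelet fibrinogen receptor subunit that pairs with beta 3, was at 0.582, 0.656 and 0.564 FPKM in control and 0.508, 0.404 and 0.445 FPKM in TBZ. Each TBZ library was below each control (log2 fold change -0.41 ± 0.15 SE, unadjusted p = 0.0244, edgeR adjusted p = 0.432), while its partner Itgb3 lay higher. The log2 fold change of the platelet gene Pf4 was 0.14 ± 0.09 (SE), and the 8 megakaryocyte and platelet markers, Itga2b among them, summed to 11.2 to 11.8 FPKM in control and 12.1 to 12.9 FPKM in TBZ. Macrophage markers summed to 217 to 269 FPKM in control and 215 to 261 FPKM in TBZ, with 5 of 12 above 0, and lymphocyte markers to at most 0.413 FPKM.

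Among the genes that share only the start of the name, Itgb1bp1, which encodes an inhibitor of integrin beta 1 activation, was at 5.60, 5.59 and 5.61 FPKM in control and 6.11, 5.46 and 5.59 FPKM in TBZ. TBZ replicate 1 was the single high library (log2 fold change 0.03 ± 0.07 SE). The log2 fold change of Itgb3bp was 0.02 ± 0.07 (SE), and that of Itgb1bp2, a muscle chaperone with 110 reads in all, was 0.50 ± 0.44 (SE). Exons of Itgb1bp1 and Itgb3bp are shared with genes on the opposite strand over 16.9% and 8.59% of their length.

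Genes of the same matrix and receptor system outside these families were tested in 4 lists, and none of them passed with edgeR. Of 21 other basement membrane components 13 were above and 8 below 0 (median log2 fold change 0.08). Ntn4, a laminin-related netrin that binds the laminin gamma 1 chain, was at 4.69, 4.69 and 3.74 FPKM in control and 5.97, 5.85 and 6.14 FPKM in TBZ (log2 fold change 0.45 ± 0.09 SE, edgeR adjusted p = 0.124), and Smoc1, a matricellular protein gene, at 36.3, 33.4 and 32.1 FPKM in control and 41.3, 39.0 and 43.1 FPKM in TBZ (0.28 ± 0.06 SE, edgeR adjusted p = 0.124). These were the 2 members of that list that DESeq2 called higher (adjusted p = 0.00286 and 0.00422), where 1.1% of all genes were called higher. Sparc and the collagen IV gene Col4a1 had the highest means of the list, 384 and 132 FPKM, and log2 fold changes of -0.01 and 0.21.

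Of 28 tested integrin ligands other than laminins 17 were above 0 (median 0.09). DESeq2 called Cdh1, Vtn and Cyr61 higher, against 1.1% of all genes. Vtn, which encodes the beta 5 and beta 3 ligand vitronectin, was at 43.0, 37.7 and 30.4 FPKM in control and 59.5, 49.0 and 51.8 FPKM in TBZ, with no overlap (log2 fold change 0.53 ± 0.12 SE, edgeR adjusted p = 0.152, DESeq2 adjusted p = 0.00022). Cdh1, E-cadherin, which alpha E beta 7 binds, was also higher in each TBZ library than in each control (0.27 ± 0.05 SE on the log2 scale, edgeR adjusted p = 0.0759). Spp1, the osteopontin gene, and Tgfbi were the most abundant of that list besides, at 386 and 199 FPKM.

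Of 36 cytoplasmic partners and tetraspanins 25 were above 0 (median 0.03), within -0.25 to 0.21, and none passed with edgeR or DESeq2. The adaptor gene Bcar1 (log2 fold change 0.16 ± 0.05 SE) and the talin gene Tln2 (0.17 ± 0.09 SE) had the smallest p-values, and the filamin gene Flna (0.07) and the actinin gene Actn4 (0.07) the highest means. Of 22 tested other laminin and matrix receptor genes 12 were above 0 (median 0.01) and none passed with either tool. Dag1, which encodes dystroglycan, the main laminin receptor outside the integrins, was at 61.1, 60.9 and 57.5 FPKM in control and 64.3, 64.8 and 64.6 FPKM in TBZ, with no overlap (log2 fold change 0.11 ± 0.04 SE, edgeR adjusted p = 0.414). The syndecan gene Sdc4 (0.10 ± 0.04 SE) had the next smallest p-value, and Rpsa, which encodes a ribosomal protein also known as a laminin receptor, the highest mean, 559 FPKM.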

How the data were processed

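Poly-A RNA of 3 control and 3 TBZ samples was read in pairs from a kit that keeps no strand, per the labels' protocols. The submitters' processing notes name STAR and HTSeq and the build mm10, and give no versions. The deposited read counts are raw whole numbers. The deposited FPKM values divide them by gene length and by a library total that the authors set at 0.991 to 1.02 of the sum. The deposited signal values are the authors' group means of counts over size factors, which a recalculation gave back. The tool behind the log2 fold changes and p-values of the authors' deposited table is not given in the sources used here. Their values nearly equal those of the DESeq2 fit (Itga6 log2 fold change 0.223 in both), so the deposited table is not independent of that fit.

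Counts of all genes were fitted with edgeR 4.0.16 (R 4.3.3; quasi-likelihood test, TMM, filterByExpr) and adjusted by Benjamini-Hochberg over 18226 genes. The SE is the size of the log2 fold change divided by the root of F, and 95% intervals use the t distribution of the fit. Levels are the deposited FPKM. Sums, shares and ratios were each put to an exact permutation test (two-sided). The members and lists were chosen with earlier results of these data known. Values per library are given for genes called by any tool, the 3 highest of each class, the 6 smallest p-values in each direction and genes with 1 library apart from the other 5 (Dixon ratio over 0.625), and in other lists for the smallest p-values and highest means. One gene is counted but not reported here. Lama3 was added after its values were seen. Alternatives were DESeq2 1.42.0, RLE scaling, no filter, a replicate block, limma 3.58.1 on log2(FPKM + 0.5) and log2(FPKM + 0.1) for genes at 0.1 FPKM or more in 3 libraries, and leaving out each library. The edgeR script was tested on simulated data. All 42 gene spans matched GENCODE M21, and promoters came from RefSeq (GRCm38.p6). No label states that replicates are separate litters or cultures, and the spread behind each p-value, which is that between these libraries, may be technical.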

Additional observations from a re-analysis of the deposited data

How the results depend on the processing

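The number of laminin and integrin genes past the threshold was 0 higher and 0 lower with RLE scaling, limma on FPKM, the replicate block and each library left out. It was 1 higher with DESeq2 (Itga6), and 1 higher (Itga6) and 1 lower (Lamb3) with no filter on low counts, where 445 of 31250 genes were called. The settings with 0 called few genes of the whole table. These were 34 of 18226 with RLE scaling and 3 of 19850 with each limma run. With a library left out they ran from 5 of 18587 (TBZ replicate 3) to 36 of 18557 (control replicate 3). So few calls leave little room for a member among them. The median over the tested genes was 0.0038 and turned to -0.011 with no filter and -0.0094 with DESeq2, both over all 42 genes, and it ran from -0.020 to 0.069 with each library left out. Deviations from the group mean had correlations of 0.00174, -0.153 and -0.0766 between same-numbered libraries. Between differently numbered libraries they ran from -0.0879 to 0.148. With 3 libraries per group these values cannot decide whether replicate numbers pair the samples. With the replicate block the median was 0.0092, the log2 fold change of Itga6 was 0.23 (edgeR adjusted p = 0.378), and 5 genes of the whole table were called instead of 34.

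Of 24 log2 fold changes of single genes, none changed sign under the settings that keep all 6 libraries. When libraries were left out in turn, 6 changed sign: Itga5 (-0.046 to 0.10), Itgb1 (-0.016 to 0.076), Itgb1bp1 (-0.020 to 0.067), Itgb5 (-0.063 to 0.059), Lama1 (-0.013 to 0.34) and Lama4 (-0.021 to 0.092). Among differences in shares, in percentage points, the same held for Itga5 (-0.92 to 0.812; -0.113 with reads not divided by length), Itgav (-0.028 to 0.605), Lama1 (-0.818 to 1.57), Lama5 (-0.255 to 4.29) and Lamb2 (-0.572 to 0.302). It also held for the log2 change of the summed partners of beta 1 (-0.010 to 0.064) and of the summed beta subunits (-0.030 to 0.061), for the gamma to alpha ratio (-0.0493 to 0.0481) and for the ratio of Itgb1 to its partners (-0.0154 to 0.0356). The cause was not tested. Depth limits Itgad, Itgbl1, Itgb1bp2, Itgb7 and Itgb2l, which had 1 to 139 reads in all.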
